A study of Mus musculus with 2 samples.

Results

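The 48 mouse genes described here encode parts of the primary cilium, and mutations in many of them cause inherited disorders called ciliopathies. They were listed by symbol and matched to the deposited gene tables by Ensembl gene identifier without its version. The rule itself used no measured value, but the list was drawn up with earlier results of these data known. All 48 were found among 43346 Ensembl genes, of which 42462 had a name. They were grouped by role into 5 classes: 19 genes of intraflagellar transport, 9 of the BBSome and its assembly, 9 of the transition zone, 5 of the basal body and 6 of the ciliary membrane and Hedgehog signalling.

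RNA was measured by total RNA-seq in the facial prominences, the swellings that form the embryonic face, of B6NCrl mice at embryonic day 10.5. The series had 1 group and 2 libraries, each from a pool of healthy male and female embryos: 69 embryos for replicate 1 and 51 embryos for replicate 2. Each library started from 10 ng of RNA longer than 200 nt, with spike-in RNA added. No treatment, mutant, other tissue or other age was included, so every value below describes wild-type tissue and the spread between 2 pools.

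The primary cilium is a single, non-motile rod of microtubules that most vertebrate cells grow from the older centriole, which then serves as the basal body. Particles of intraflagellar transport (IFT) carry cargo out along the rod with kinesin-2 and back with dynein-2, the BBSome carries membrane proteins, and the transition zone at the base controls what enters. Hedgehog signalling in vertebrates depends on this organelle, and many ciliopathies affect the face.

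The depth over genes was 40059176 expected counts for replicate 1 and 39531700 for replicate 2. The cilium genes held 0.154% of them in replicate 1 (exact 95% interval 0.153 to 0.156%) and 0.151% in replicate 2 (0.149 to 0.152%), intervals that cover counting error only. The least read of the cilium genes, Tctn1, still had 229 and 201 expected counts, and the most read, C2cd3, had 3238 and 3324. Over 19106 genes the 2 libraries differed beyond sampling noise, with a chi-square of 8.38 per degree of freedom, so they were kept as 2 samples. Markers of several cell types were present: 7 of 7 mesenchyme markers at a median TPM (transcript abundance scaled for transcript length and depth) of 77.0, 6 of 6 ectoderm markers at 38.7, 6 of 6 neuron markers at 77.9, 6 of 6 endothelial markers at 18.8 and 6 of 6 erythroid markers at 1118. In a mixed tissue, fewer cells of a type and less RNA per cell cannot be told apart.

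All 48 cilium genes were detected, that is, had a TPM of at least 1 in both libraries. Of all 21474 named protein coding genes, 58.2% were. A mean TPM of at least 10 was reached by 33 of the 48, beside 39.0% of named protein coding genes. TPM is scaled by transcript length, so these levels were set side by side between genes. An error of length or of transcript assignment that both libraries share would not show in the spread between them. The median of the 48 means was 15.7 TPM, and the range ran from 2.52 TPM for Bbs1 to 113 TPM for Ift46. The median of the 12494 detected protein coding genes was 20.1 TPM, and 18 of the 48 lay above it.

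**Figure D1:**
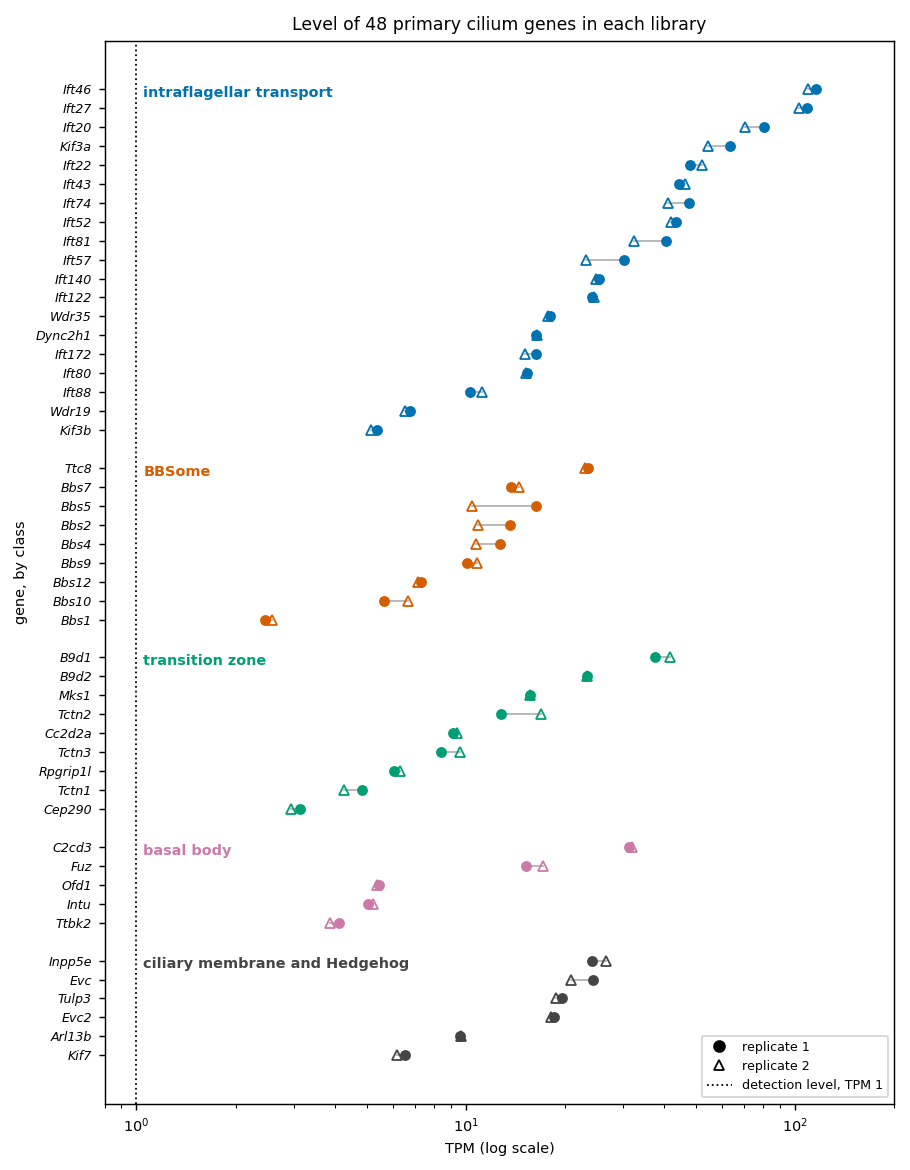
TPM of each cilium gene on a log scale, with a filled circle for replicate 1 and an open triangle for replicate 2, grouped by class and ordered by mean level; the dotted line marks the detection level of 1 TPM. Both libraries of every gene lie to the right of that line, and the highest 8 genes all belong to intraflagellar transport.

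Among the 48 listed genes, those of intraflagellar transport had the highest median of the 5 classes, 26.6 TPM, and 17 of 19 reached 10 TPM. Within them the 11 listed members of the IFT-B complex, which acts in outward transport, had a median of 42.8 TPM and all reached 10 TPM. The 5 listed members of the IFT-A complex, which acts in return transport and in the entry of membrane proteins, had a median of 24.3 TPM. The 3 motor genes spread widely, from 5.27 to 58.9 TPM.

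Ift46, an IFT-B subunit (ENSMUSG00000002031, GRCm38 chromosome 9, 44767908 to 44793447), was measured at 116 TPM in replicate 1 and 110 TPM in replicate 2. Of this level, 30.0 and 33.9% lay on Ift46-209, a transcript of 229 bases annotated as protein coding. The leading transcript, Ift46-202 of 1317 bases, had a mean of 50.8 TPM. The rank of Ift46 without the short transcript was not tested. Ift27, a small GTPase of IFT-B (ENSMUSG00000016637, chromosome 15, 78159463 to 78174107), had 108 and 103 TPM, all on its 1 annotated transcript. These 2 genes had the highest means, 113 ± 4.43 and 105 ± 3.97 TPM (SD, n = 2), and did not differ beyond their spread: the log2 difference was 0.10 with a 95% interval of -0.05 to 0.24. Such intervals for a pair of genes used log2(TPM + 0.1) and a spread between replicates shared by the 200 genes of closest level, since 2 values are too few for a spread of their own. A pair was said to differ where 0 lay outside the interval and the libraries did not disagree in sign.

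Ift20, the IFT-B subunit that also sits at the Golgi, followed at 80.3 and 70.4 TPM and was below Ift27 by 1.40-fold (1.26 to 1.55). Ift22, another small GTPase of IFT-B, had 48.1 and 52.2 TPM. Ift74 and Ift81, which pair to bind tubulin, had 47.6 and 40.97 TPM and 40.6 and 32.4 TPM. Ift74 was higher by 1.22-fold (95% interval 1.08 to 1.37), and in replicate 1 taken alone the log2 difference of 0.23 did not pass. On transcripts annotated as protein coding alone the same ratio was 2.00-fold, because coding transcripts made up 99.7% of Ift74 and 60.4% of Ift81.

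The core subunits Ift52 and Ift88, both needed to build a cilium, stood far apart. Ift52 had 43.6 and 42.0 TPM and Ift88 had 10.3 and 11.2 TPM. Ift88, the lowest of the 11 listed IFT-B members, thus lay 3.96-fold (3.20 to 4.90) under its partner. Between them came Ift57 at 30.1 and 23.1 TPM, Ift172, the largest of these subunits, at 16.4 and 15.2 TPM, and Ift80 at 15.31 and 15.25 TPM. Ift20 exceeded Ift57, which it binds, by 2.84-fold (2.47 to 3.27).

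Among the IFT-A genes, the small subunit gene Ift43 was highest at 44.4 and 46.1 TPM. The core subunits Ift140 and Ift122 were nearly level, with 25.4 and 24.9 TPM for Ift140 and 24.1 and 24.4 TPM for Ift122, and the log2 difference of 0.05 (-0.20 to 0.29) did not pass. Wdr35 had 18.1 and 17.8 TPM, which placed it under Ift122 by 0.44 on the log2 scale (95% interval of Wdr35 minus Ift122, -0.69 to -0.18). Wdr19, the IFT144 gene, was the lowest at 6.77 and 6.53 TPM, and its log2 level minus that of Ift140 was -1.90 (-2.27 to -1.53).

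The motor genes gave the widest ratio of the 21 pairs compared on all transcripts. On coding transcripts alone the pairs with Tctn2 cannot be ranked. The coding level of Tctn2 was 0 TPM, so the size of their differences depends on the pseudocount. Kif3a (ENSMUSG00000018395, chromosome 11, 53567379 to 53601967) and Kif3b (ENSMUSG00000027475, chromosome 2, 153291413 to 153333390) encode the 2 motor subunits that join in kinesin-2. Kif3a had 63.3 and 54.5 TPM, and Kif3b had 5.38 and 5.15 TPM. Kif3a was higher by 11.0-fold (8.31 to 14.5), and by 7.32-fold on coding transcripts alone. Expected counts were 2719 and 2472 for Kif3a and 790 and 751 for Kif3b. The mean effective lengths were 1672 bases for Kif3a and 5536 bases for Kif3b, so the ratio rests in part on length. The most abundant Kif3a transcript, Kif3a-206 of 770 bases, is annotated as a target of nonsense-mediated decay and made up 32.0% of the gene in replicate 1 and 29.4% in replicate 2. Kif3c, a gene for another kinesin-2 motor subunit that was looked up after these values were seen, had 15.4 and 13.2 TPM. Dync2h1, the heavy chain of dynein-2, had 16.3 and 16.5 TPM, and Kif3a exceeded it by 3.56-fold (2.99 to 4.24). Kifap3, the non-motor subunit of kinesin-2 and not among the 48, had 32.2 and 29.0 TPM.

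In the order of levels within intraflagellar transport, 8 of 18 neighbouring genes differed beyond their spread. The steps that did not pass joined Ift46 with Ift27, Ift22 with Ift43, Ift43 with Ift74, Ift74 with Ift52, Ift57 with Ift140, and Ift140 with Ift122. They also joined Wdr35, Dync2h1, Ift172 and Ift80 in a run, and Wdr19 with Kif3b.

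BBSome genes had a median of 11.7 TPM, and 6 of 9 reached 10 TPM. Ttc8, which encodes the BBS8 subunit, was the highest at 23.4 and 23.04 TPM, above its nearest neighbour Bbs7 by 1.64-fold (log2 difference 0.72, 0.46 to 0.97). Bbs7 (13.7 and 14.5 TPM), Bbs5 (16.4 and 10.4), Bbs2 (13.6 and 10.9), Bbs4 (12.7 and 10.8) and Bbs9 (10.1 and 10.8) then formed a run in which no neighbours differed beyond their spread. Bbs2 and Bbs7, whose products assemble early together with Bbs9, had a log2 difference of -0.21 with an interval of -0.53 to 0.11. On coding transcripts alone that difference was -0.42 and passed.

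Bbs1 (ENSMUSG00000006464, chromosome 19, 4886878 to 4906628) was the lowest of all 48, with 2.46 and 2.58 TPM from 358 and 373 expected counts. Its product is the BBSome subunit that binds the GTPase ARL6 and brings the complex to membranes. The log2 level of Bbs1 minus that of Bbs9 was -2.01 (-2.58 to -1.44), and the next lowest BBSome gene, Bbs10, was higher by 2.38-fold (1.58 to 3.59). The chaperonin-like genes Bbs10 and Bbs12, which act in assembly of the complex, had 5.63 and 6.68 TPM and 7.33 and 7.17 TPM. They did not differ beyond their spread (log2 difference -0.24, interval -0.67 to 0.19).

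At the transition zone the median was 9.28 TPM (6.11 TPM on coding transcripts alone), and 4 of 9 genes reached 10 TPM. The 3 genes whose products carry a B9 domain had the highest means: B9d1 had 37.5 and 41.7 TPM, B9d2 had 23.4 in both, and Mks1 had 15.7 in both. B9d1 exceeded B9d2 by 1.69-fold (1.48 to 1.93), and B9d2 exceeded Mks1 by 1.49-fold (1.26 to 1.76). Mks1 did not differ beyond the spread from the next gene, Tctn2 (log2 difference 0.09, -0.19 to 0.37), which was the higher of the 2 in replicate 2.

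The tectonic genes, Tctn1, Tctn2 and Tctn3, encode related proteins of the transition zone membrane. Tctn2 had 12.8 and 16.9 TPM, Tctn3 had 8.40 and 9.58 TPM and Tctn1 had 4.85 and 4.26 TPM. All 3 pairs differed on all transcripts, and Tctn2 exceeded Tctn3 by 1.63-fold (1.27 to 2.10). That order rests on how Tctn2 is annotated. Its leading transcript, Tctn2-207 of 2733 bases, held 77.9 and 79.9% of the gene and is classed in GENCODE M21 as a processed transcript without a coding frame, so the coding level of Tctn2 was 0 TPM there.

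Cc2d2a, a membrane-associated protein of the tectonic complex, had 9.17 and 9.39 TPM. Rpgrip1l, a scaffold of the transition zone, had 6.05 and 6.32 TPM, and the 2 differed by 1.49-fold (1.11 to 2.00), though not in either library alone (log2 difference 0.59 and 0.56). On coding transcripts the sign turned, with a log2 difference of -0.30 that did not pass, and the most abundant Cc2d2a transcript, at 41.6 and 49.5% of the gene, has no entry in GENCODE M21. Cep290, a large protein of the links between the microtubules and the membrane, was the lowest of the class at 3.14 and 2.94 TPM. It did not differ from Tctn1 beyond the spread (1.48-fold, 0.99 to 2.22).

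Basal body genes had the lowest median of the classes, 5.42 TPM, with 2 of 5 at 10 TPM or more. C2cd3, needed for the appendages by which the centriole docks, stood above the other 4 with 31.3 and 32.0 TPM. Ofd1, which acts on the same end of the centriole, had 5.45 and 5.39 TPM, and its log2 level minus that of C2cd3 was -2.52 (-2.88 to -2.17). On coding transcripts alone the difference was -1.43, since 46.6% of the C2cd3 level was on coding transcripts. Ttbk2, the kinase that starts cilium growth, was the lowest at 4.13 and 3.88 TPM.

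Fuz and Intu encode partners in the CPLANE complex, which recruits IFT-A to the basal body. Fuz had 15.3 and 17.2 TPM and Intu 5.03 and 5.23 TPM, a ratio of 3.12-fold (2.30 to 4.22). On coding transcripts the 2 were level, with a log2 difference of -0.042 that did not pass. Coding transcripts made up 30.8% of Fuz and 99.9% of Intu. A further 21.6 and 16.6% of Fuz lay on 2 transcripts with no entry in GENCODE M21, which count as non-coding here. Fuz also overlaps 2259 bases of Ap2a1 on the opposite strand, which had 64.6 and 62.9 TPM. Whether strand was used in counting is not given in the sources used here, and the part of Ap2a1 reads in the Fuz value was not tested.

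Genes of the ciliary membrane and Hedgehog signalling had a median of 18.7 TPM, and 4 of 6 reached 10 TPM. Inpp5e, the phosphatase that sets the lipid content of the ciliary membrane, had 24.2 and 26.6 TPM. Arl13b, the GTPase that keeps it there, had 9.62 and 9.69 TPM, and its log2 level minus that of Inpp5e was -1.38 (-1.73 to -1.04). Tulp3, which brings receptors into the cilium, had 19.5 and 18.7 TPM.

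Evc and Evc2 encode partners that pass the signal on from Smoothened. Evc had 24.3 and 20.9 TPM and Evc2 had 18.5 and 18.1 TPM, a ratio of 1.23-fold (log2 difference 0.30, 0.07 to 0.54) that did not pass in replicate 2 alone (log2 difference 0.21) or on coding transcripts (0.06). Their starts lie 1605 bases apart on opposite strands of chromosome 5. Kif7, the kinesin that organises the cilium tip for the Gli proteins, was the lowest of the class at 6.54 and 6.17 TPM.

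Across the 48 genes the level fell with transcript length. The 7 genes with an effective length under 1000 bases had a median of 50.1 TPM, and the 12 genes of at least 4000 bases had a median of 5.80 TPM. The same cuts over detected protein coding genes gave 65.8 and 11.1 TPM. Spearman's rho between mean TPM and effective length was -0.63 over the 48 genes, -0.82 over the 19 intraflagellar transport genes and -0.29 over 12494 detected protein coding genes. These are correlations across genes of the same 2 libraries, genes are not independent replicates, and TPM itself is a count divided by this length. The median effective length was 1939 bases for intraflagellar transport, 2443 for the BBSome, 2363 for the transition zone, 4354 for the basal body and 3374 for the membrane class. That order is not the reverse of the order of the median levels, and the part of length in the latter was not tested.

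**Figure D2:**
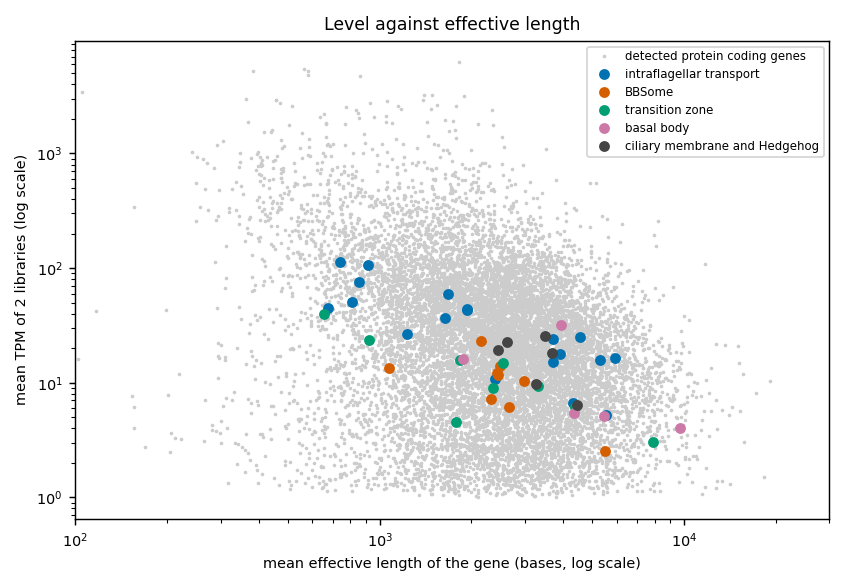
Mean TPM of 2 libraries against mean effective length in bases, both on log scales, with detected protein coding genes in grey and the cilium genes coloured by class. The coloured points run from the upper left, where the short intraflagellar transport genes lie, to the lower right, where Ttbk2 and Cep290 lie.

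The leading transcript of a gene was the same in both pools for 34 of the 34 cilium genes that had 2 or more annotated transcripts and averaged 5 TPM or above. Over all 7738 such genes the share was 93.8%. For 12 of the 48 only 1 transcript was annotated. The leading transcript was protein coding in 45 genes, and the exceptions were Kif3a, Tctn2 and Cc2d2a, described above. Coding transcripts carried at least 90% of the level in 23 genes and under 50% in 4, which were Tctn1 (43.9%), Tctn2 (0%), C2cd3 (46.6%) and Fuz (30.8%). The same counts over all genes are not given here, so whether the 48 genes are unusual in this cannot be told.

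In Dync2h1 the leading transcript was short. Dync2h1-202, of 2892 bases, held 54.7 and 56.2% of the level, and Dync2h1-204, the full 14264 bases, held 22.8 and 25.7%. Shares could differ between the pools where the gene level did not pass the test. Kif7-203 held 63.7% of Kif7 in replicate 1 and 82.5% in replicate 2.

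**Figure D3:**
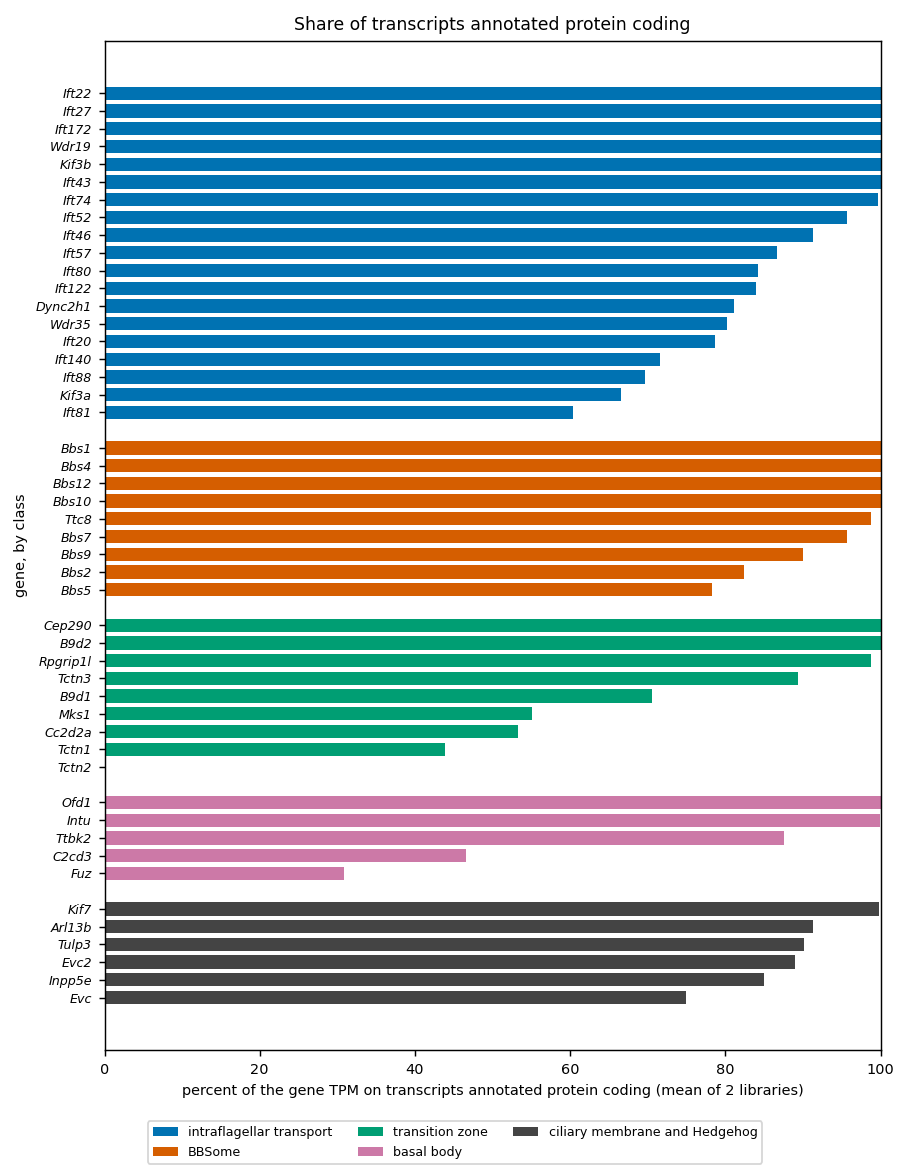
Percent of the TPM of each cilium gene that lies on transcripts annotated as protein coding in GENCODE M21, mean of 2 libraries, as bars grouped by class. The bar reaches at least 90% in 23 genes, while Fuz stands at 30.8%, Tctn1 at 43.9%, C2cd3 at 46.6% and Tctn2 at 0%.

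Differences between the 2 pools were small in most of these genes. On scaled counts, 1 of 48 was at least 25% higher in 1 library than in the other, beside 12.7% of the 14038 genes tested, and 0 of 48 were 2-fold apart, beside 1.24%. The genes tested include noncoding genes and genes with fewer counts than any of the 48. Of 12325 detected protein coding genes among them, 1171 were 25% apart and 80 were 2-fold apart. The log2 ratio of replicate 2 to replicate 1 ran from -0.26 to 0.34 over the 48, with a median absolute value of 0.09. Over all genes tested that median was also 0.09. The gene past 25% was Tctn2 (ENSMUSG00000029386, chromosome 5, 124598749 to 124627738), with 889 expected counts in replicate 1 and 1093 in replicate 2, 1.26-fold higher in replicate 2. By the ratio of TPM in place of counts, 4 of 48 were 25% apart (Ift57, Ift81, Bbs5 and Tctn2), beside 14.6% of the same genes.

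Rounded counts were also compared by an exact two-sided binomial test. With Benjamini-Hochberg adjustment over the 14038 genes, it called 10 of 48, beside 30.8% of all genes. This test compares the reads of these 2 libraries and no condition. Ift46, Ift57, Ift74, Ift81, Kif3a and Bbs4 were higher in replicate 1, by 1.07-fold (Kif3a) to 1.19-fold (Ift57). Tctn2, Bbs10, Rpgrip1l and Inpp5e were higher in replicate 2, by 1.10-fold (Inpp5e) to 1.26-fold (Tctn2). Adjusted p in this exact binomial test ran from 3.29e-06 for Tctn2 to 0.0465 for Kif3a. The TPM intervals deposited for each gene did not overlap between the pools in 6 of 48 genes (Ift20, Ift57, Ift74, Bbs4, Bbs5 and Tctn2), beside 16.6% of all genes tested.

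The counts of genes higher in each pool are given by class, with no test between classes. On scaled counts, 29 of the 48 genes were higher in replicate 1, beside 48.1% of all genes tested. By class these were 15 of 19 intraflagellar transport genes, 10 of the 11 IFT-B genes among them, 6 of 9 BBSome genes, 4 of 9 transition zone genes, 0 of 5 basal body genes and 4 of 6 membrane genes. The median log2 ratio was -0.05 for intraflagellar transport and 0.09 for the basal body. Beside this, the summed TPM of the mesenchyme markers was 977 in replicate 1 and 902 in replicate 2, that of the ectoderm markers 272 and 279, that of the neuron markers 492 and 503, that of the endothelial markers 164 and 158 and that of the erythroid markers 10751 and 9726. Gene by gene on scaled counts, 3 of 7 mesenchyme, 4 of 6 ectoderm and 5 of 6 neuron markers were higher in replicate 2. So were 5 of 6 endothelial and 3 of 6 erythroid markers, although both of those sums were lower there. A sum is weighted to the most abundant genes of a list. The part of these markers in the differences by class was not tested.

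Bbs5 (ENSMUSG00000063145, chromosome 2, 69647171 to 69667571) showed how a TPM can move further than its reads. Its TPM was 16.4 in replicate 1 and 10.4 in replicate 2, while its expected counts were 404 and 333. After scaling, the counts were 1.18-fold apart and did not pass the exact binomial test (adjusted p = 0.0728). Its leading transcript Bbs5-201 held 48.8% of the gene in replicate 1 and 84.1% in replicate 2, and the effective length of the gene went from 931 to 1214 bases.

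**Figure D4:**
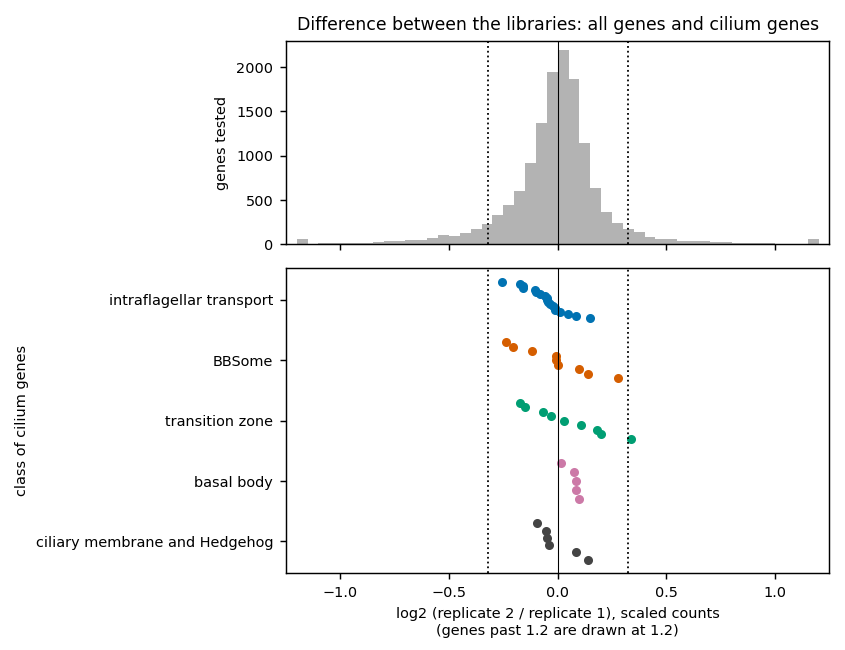
Upper panel: histogram of the log2 ratio of replicate 2 to replicate 1 on scaled counts for all genes tested. Lower panel: the same ratio for each cilium gene by class, with dotted lines at 25% either way; only Tctn2, at 0.34, lies outside them, and the 5 basal body genes all lie above 0.

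Other genes of the same structures, chosen by role, were mostly detected too. Of 69 further primary cilium genes in 5 lists, 65 were detected, with a median of 19.6 TPM. The 4 below detection were Ttc30a2 and Kif17 of intraflagellar transport (0.37 and 0.51 TPM) and the ciliary receptors Mchr1 and Sstr3 (0.18 and 0.01 TPM). All 4 further BBSome genes were detected, from Bbip1 at 21.2 ± 0.67 TPM to Arl6 at 35.7 ± 1.34 TPM (SD, n = 2), the latter encoding the GTPase that recruits the BBSome. Among the 7 BBSome subunits of the 48, Ttc8 alone reached 20 TPM. The 15 further intraflagellar transport genes had the lowest median of the 5 lists, 12.5 TPM, and the 4 further BBSome genes the highest, 32.0 TPM. The order of the class medians among the 48 thus did not hold for these further genes.

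All 17 further transition zone genes were detected (median 16.9 TPM), with Iqcb1 the highest at 59.6 TPM. So were all 15 further basal body genes (median 18.6 TPM), from Rsg1 of the CPLANE group at 7.07 to Odf2 of the centriole appendages at 88.7 TPM. Of 18 further membrane and Hedgehog genes 16 were detected (median 22.7 TPM). Arl3, the GTPase that releases lipid-bound cargo in the cilium, led them at 169 and 163 TPM, followed by Rab8a at 109 and 115 TPM. Smoothened (Smo), named here for its role after the values were seen, had 45.5 and 47.8 TPM, above every one of the 6 membrane genes listed among the 48.

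Genes that take cilia apart or cap the centriole were all detected, 11 of 11, with a median of 28.6 TPM. The mitotic kinases Plk1 (194 and 203 TPM) and Aurka (186 and 191 TPM) and the dynein regulator Nde1 (153 and 164 TPM) were the highest. Each of these 3 also acts in cell division, so their levels are not specific to cilia.

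Markers of motile cilia, which have their own dyneins and radial spokes, were mostly low. Of 20 such genes 8 were detected, and the median was 0.45 TPM. Foxj1, the factor that drives motile ciliogenesis, had 2.35 ± 0.55 TPM (SD, n = 2), while the outer arm dynein Dnah5 had 0.02 and 0.03 TPM. The highest of the list was Ccdc40, at 17.7 and 21.1 TPM. The multiciliation regulators Mcidas and Gmnc were at 0.05 TPM in replicate 1 and at 0.42 and 0.08 TPM in replicate 2. Mcidas and Gmnc were named for their role after the values were seen.

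**Figure D5:**
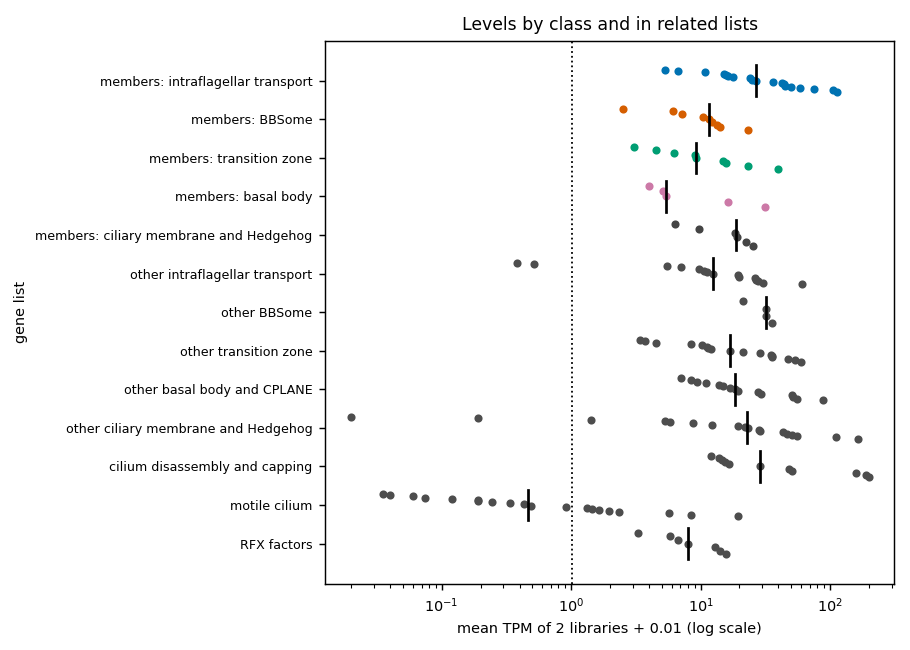
Mean TPM of 2 libraries plus 0.01, on a log scale, for the cilium genes by class and for the related lists; each point is 1 gene, the short bar is the list median and the dotted line is the detection level. The motile cilium list has its median at 0.45 TPM, left of that line, and all other medians lie right of it.

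RFX factors are the transcription factors that bind the X-box, a motif found near the starts of many cilium genes. The list held 6 of these factors and Rfxank, a partner of Rfx5 that has no RFX domain of its own, and all 7 were detected. Rfx3 was the highest at 15.5 and 16.0 TPM. Rfx4 had 3.24 TPM in replicate 1 and 12.8 in replicate 2, a 3.49-fold difference on scaled counts that was the only one past 2-fold in this list. No cilium gene among the 48 moved by as much.

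The promoter windows of the cilium genes were searched for the X-box as the palindrome GTTGCCATGGCAAC, in which the last 6 bases are the reverse complement of the first 6, so that both strands are searched at once. The windows were those of RefSeq on GRCm38.p6, from 250 bases before to 50 after each start, and 45 of the 48 genes had one. With at most 3 mismatches, 12 of 45 matched (26.7%), beside 3.84% of 27025 genes with a window and 4.29% of 9791 detected protein coding genes. With at most 2 the counts were 5 of 45 (11.1%) beside 1.40%, and with at most 4 they were 17 of 45 (37.8%) beside 13.9%. The 12 were Bbs1, Bbs7, Mks1, Tctn1 and Tctn2 with 2 mismatches and B9d1, B9d2, Bbs12, Dync2h1, Ift22, Ift57 and Ift140 with 3.

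The 6 matches with fewest mismatches to this palindrome, before the start and outside annotated exons, are shown with their neighbouring bases. They are among the sequences behind that count. Each reads 5′ to 3′ on the strand of its gene, and capitals mark the match.
Bbs7: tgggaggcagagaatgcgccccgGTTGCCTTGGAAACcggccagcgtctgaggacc
Mks1: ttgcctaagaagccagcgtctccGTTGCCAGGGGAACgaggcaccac
Tctn2: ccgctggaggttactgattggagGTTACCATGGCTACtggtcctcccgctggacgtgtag
Ift140: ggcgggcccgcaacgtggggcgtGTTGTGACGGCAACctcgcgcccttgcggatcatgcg
Ift22: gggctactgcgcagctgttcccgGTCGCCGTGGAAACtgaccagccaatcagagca
Ift57: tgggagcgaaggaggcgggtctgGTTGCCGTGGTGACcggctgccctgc

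On GRCm38.p6 the Bbs7 stretch is chr3:36613478-36613533 on the minus strand. The others are on the plus strand: Mks1 at chr11:87853168-87853214, Tctn2 at chr5:124598664-124598723, Ift140 at chr17:25015946-25016005, Ift22 at chr5:136908094-136908149 and Ift57 at chr16:49699184-49699232. Counted from 1 at the 5′ end of the palindrome, Bbs7 differs by A7T and C11A, Mks1 by T8G and C11G, and Tctn2 by G4A and A12T. Ift140 differs by C5T, C6G and T8C, Ift22 by T3C, A7G and C11A, and Ift57 by A7G, C11T and A12G. The 6 genes ranged in level from 14.1 TPM (Bbs7) to 50.1 TPM (Ift22), and Bbs1, with a match inside its first exon, had the lowest level of the 48. A match of this kind is a stretch of letters and not evidence that a factor binds there, and no binding data were part of the series.

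Some cilium genes began close to another gene on the opposite strand. A divergent neighbour, whose start lies within 1000 bases upstream, was annotated for 14 of 48, beside 10.9% of named protein coding genes and 15.7% of detected ones. With starts on either side of the start counted, the number was 17 of 48, beside 26.7% of detected protein coding genes. In 9 of the 14 the neighbour was protein coding. Ift20 and Tnfaip1 started 29 bases apart, with means of 75.3 ± 7.0 and 77.3 ± 1.00 TPM (SD, n = 2). Ift46 and Arcn1 started 63 bases apart, with 113 ± 4.43 and 139 ± 0.33 TPM. Other pairs were far from level. Ift80 had 15.3 TPM beside 147 TPM for Smc4, 168 bases away, and Dync2h1 had 16.4 TPM beside 93.7 TPM for Dcun1d5, 74 bases away. Starts here are those of GENCODE M21, at 44767908 for Ift46 and 7184446 for Dync2h1 on chromosome 9. The RefSeq promoter windows of these 2 genes lay elsewhere, near 44772759 and 7177059. The X-box match and the divergent start of Dync2h1 thus belong to different annotated starts.

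Overlap with another gene limits some of these values. By GENCODE M21, 24 of the 48 genes overlap another gene, beside 55.8% of detected protein coding genes. On the opposite strand these are 22, beside 44.9%, and on the same strand 9, beside 23.6%. Evc overlaps Crmp1 over 3036 bases on the opposite strand, where Crmp1 had 65.5 and 72.8 TPM, and Inpp5e overlaps Pmpca over 874 bases, with 121 and 126 TPM for Pmpca. Tctn1 overlaps Hvcn1 over 4450 bases (13.5 and 12.3 TPM) and Bbs4 overlaps Adpgk over 2063 bases (35.9 and 34.4 TPM). Ttbk2 overlaps Cdan1 over 117313 bases on the same strand, and Cdan1 had 4.83 and 4.69 TPM. Expected counts were 656 and 664 for Cdan1 beside 1011 and 1045 for Ttbk2. These overlaps are of whole genes from start to end, introns included. Without strand in the counting, reads from exon bases shared by genes on opposite strands cannot be told apart. For genes on the same strand, strand would not separate such reads. The share of such reads was not tested.

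The 48 genes lay on 17 chromosomes. Chromosome 5 held 9 of them (Ift22, Ift81, Ift172, Wdr19, Cc2d2a, Tctn1, Tctn2, Evc and Evc2), beside 6.19% of detected protein coding genes, and the X chromosome held 1, Ofd1. The 9 were singled out after the counts per chromosome were seen.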

How the data were processed

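Total RNA-seq of 2 pools of mouse facial prominence was analysed from gene and transcript tables. Expected counts per gene were deposited as the authors estimated them, not normalized. TPM per gene and transcript was scaled by the authors over all features of a table. The share of each transcript in its gene was deposited as a percent. Bounds of a TPM interval were deposited too, with their level not stated. Per the accompanying notes, the assembly was mm10 and the annotation GENCODE M4. The aligner, the quantifier and the use of strand are not given in the sources used here.

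Symbols, classes and coordinates came from GENCODE M21 on GRCm38 by gene identifier, and promoter windows from RefSeq (GRCm38.p6). Features other than Ensembl genes were left out. Depth was 40059176 and 39531700 gene counts, and shares of counts carry exact 95% intervals. With 1 group there was no contrast. Levels and pairs of genes used TPM, with a pseudocount of 0.1 on the log2 scale. Differences between the libraries used counts rounded to whole numbers, TMM scaling (edgeR 4.0.16, R 4.3.3), a prior count of 2 and a mean count of 50 or more per gene. The exact binomial test and its adjustment were written in Python 3.11.15 with scipy 1.17.1 and were tested on simulated data. Apart from the changes put in, those data held counting noise only. The rate of calls under a spread between pools was therefore not tested. DESeq2 1.42.0 size factors were an alternative.

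All 48 genes could be named. From the related lists up to 4 of highest and 2 of lowest level were named, with undetected genes where 5 or fewer, and genes 2-fold apart. Exceptions are stated, and the result of 1 gene that this rule took is not reported here. The genes, lists and tests were chosen with earlier results of these data known. The spread between 2 pools is the only error between samples that these data give. The TPM intervals deposited for each library were not used in the intervals for pairs of genes. The promoter stretches shown were restricted to bases outside annotated exons. Protein sequences were not used here.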

Additional observations from a re-analysis of the deposited data

How the results depend on the processing

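With 1 group of 2 pools, no paired analysis was possible because there was no second group to pair. The count of 48 detected genes, the 2-fold count, the leading transcripts, the other cilium genes detected and the divergent neighbours kept within 1.5 times of the value given, under every alternative run on them. The median of the 48 genes was 15.7 TPM. It was 16.0 TPM from replicate 1 alone and 16.1 TPM from replicate 2 alone, 17.2 TPM when TPM was rescaled over Ensembl genes, and 13.1 TPM on coding transcripts alone. At a detection level of 5 TPM, 3 motile cilium genes were detected. By the ratio of TPM, 4 of the 48 genes were 25% apart, beside 14.6% of all genes tested, where scaled counts gave 1. By deposited intervals 6 differed, beside 16.6%, where the exact binomial test called 10. At most 2 mismatches left 5 genes with an X-box match. Of the 19 pairs that differed, 14 also differed with the same sign on coding transcripts alone, 2 differed with the opposite sign and 3 no longer differed, while 1 other pair came to differ. On coding transcripts, 4 of the 21 pairs changed sign: the log2 differences were 4.39 for Tctn1 minus Tctn2, -6.34 for Tctn2 minus Tctn3, -0.30 for Cc2d2a minus Rpgrip1l and -0.0418 for Fuz minus Intu. The 2 pairs with Tctn2 are also the 2 that differed with the opposite sign. Tctn2 had a coding level of 0 TPM by its annotation, so the size of those 2 differences depends on the pseudocount of 0.1. The alternatives on coding transcripts, ratios of TPM, deposited intervals and starts on either side were chosen after seeing the data. Every gene had a count of 201 or more in each library, and the number of pools limits precision. Counting error, the assignment of reads to transcripts and the spread between pools were not separated.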
